A study of Mus musculus with 9 samples.

Results

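The heat shock and endoplasmic reticulum (ER) chaperone genes described here are 39 mouse genes, chosen by symbol from the rows of a table of normalized counts. Of these, 18 belong to the cytosolic and mitochondrial heat shock branch and 21 to the ER stress branch. The table lists 21936 genes, of which 11809 averaged 10 or more normalized counts over the 9 libraries and were tested. All 39 members were above that minimum. The symbol Ddit3 stands on 2 rows, and the second of these held 0 reads in every library and was not used.

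The libraries came from liver lymphatic endothelial cells, isolated from IL7GFP/knock-in mice, a GFP reporter for these cells, and sorted straight into lysis reagent, 20000 to 50000 cells per sample. The 3 groups were sham surgery, 2 weeks after bile duct ligation and 4 weeks after bile duct ligation, with 3 libraries each, and every group, sham included, carried the reporter allele. Ligating the bile duct blocks bile flow and is a standard surgical model of cholestatic liver injury. The design text gives 3 mice per group, while the age, sex, strain background and sorting gate of the mice and when sham livers were taken are details not given in the sources used here.

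Heat shock proteins are chaperones that keep other proteins folded, and their genes are switched on by heat shock factor 1 (Hsf1) when misfolded proteins build up in the cytosol or nucleus. The ER has its own chaperones, and 3 membrane sensors, encoded by Ern1 (IRE1α), Eif2ak3 (PERK) and Atf6, start the unfolded protein response when ER folding is overloaded. The transcription factors Xbp1, Atf4 and Atf6 then raise the genes for ER chaperones and for degradation of misfolded ER proteins. Several heat shock genes are also known to respond to the warming and enzyme treatment that freshly dissociated tissue goes through.

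Sequencing depth, recovered from the normalized counts as whole reads, was 592419 reads in sham replicate 2 and 2259239 to 5314381 reads in the other 8 libraries. A single read equals 5.26 normalized counts in that library, and 0.589 to 1.23 elsewhere. Sham replicate 2 also correlated less with the other libraries (r of 0.741 to 0.828 across genes) than the remaining 28 pairs did with each other (0.855 to 0.957). Its summed lymphatic endothelial markers (10 genes, among them Prox1, Flt4, Lyve1 and Pdpn) were 9079 normalized counts, against 17670 to 47433 in the other 8 libraries. Among these markers, Prox1 was detected in all 9 libraries, and Ccl21a was at 0 in 8 libraries and at 1 read in sham replicate 1. Macrophage and Kupffer cell markers (11 genes, among them Clec4f, Timd4 and Marco) were abundant too, summing to 27428 to 68806 in sham, 27195 to 61561 at 2 weeks and 11262 to 28321 at 4 weeks. Hepatocyte markers (8 genes, among them Alb) summed to 3087 to 16276 in sham. They summed to 5866 to 13023 at 2 weeks and 5084 to 26375 at 4 weeks. Sinusoidal endothelial markers (8 genes) summed to 3359 to 12536, then 4597 to 7183, then 4941 to 10092. These bulk values cannot tell fewer cells of a type from less RNA per cell. The sources used here do not say which library came from which mouse beyond the replicate number, so the spread between libraries may be partly technical.

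Counted over all 39 members, 1 gene passed the test: the small heat shock gene Hspb1, which was lower at 4 weeks than in sham. The test was limma on log2(normalized count + 1), two-sided, with Benjamini-Hochberg adjustment over all 11809 genes and a threshold of 0.05. At 2 weeks 0 members passed, where 0.0169% of all genes did. At 4 weeks 1 member passed, or 2.56% of the members, where 1.20% of all genes did with 0.669% lower and 0.533% higher. Between 4 and 2 weeks 0 members passed, against 0.00% of all genes. At an unadjusted p below 0.05 limma gave 8 members at 2 weeks (8.55% of all genes), 4 at 4 weeks (13.7% of all genes) and 0 between the 2 times (4.02% of all genes). All of those 8 and 4 members were on the lower side after ligation, where 4.20% and 7.30% of all genes were, and between the times 0 members and 3.04% of all genes were lower. By edgeR's quasi-likelihood test on the recovered reads 0, 1 and 0 members passed in the 3 comparisons. Of all 11809 genes, 2, 167 and 0 did. DESeq2 passed 2, 1 and 0 members, and 211, 573 and 78 of all genes.

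Most members sat below their sham level without passing. At 2 weeks 36 of 39 log2 fold changes were below 0, made up of 18 of 18 heat shock genes and 18 of 21 ER stress genes, against 44.4% of all genes. At 4 weeks 34 of 39 were below 0, made up of 16 of 18 and 18 of 21, against 44.8% of all genes. Both comparisons use the same sham libraries. Compared with 2 weeks, 35 of 39 members stood above 0 at 4 weeks, and the 4 below 0 were Hspa2, Dnajb9, Eif2ak3 and Ddit3 (47.8% of all genes were below 0). Members of one branch share regulators and libraries and are not independent replicates.

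**Figure D1:**
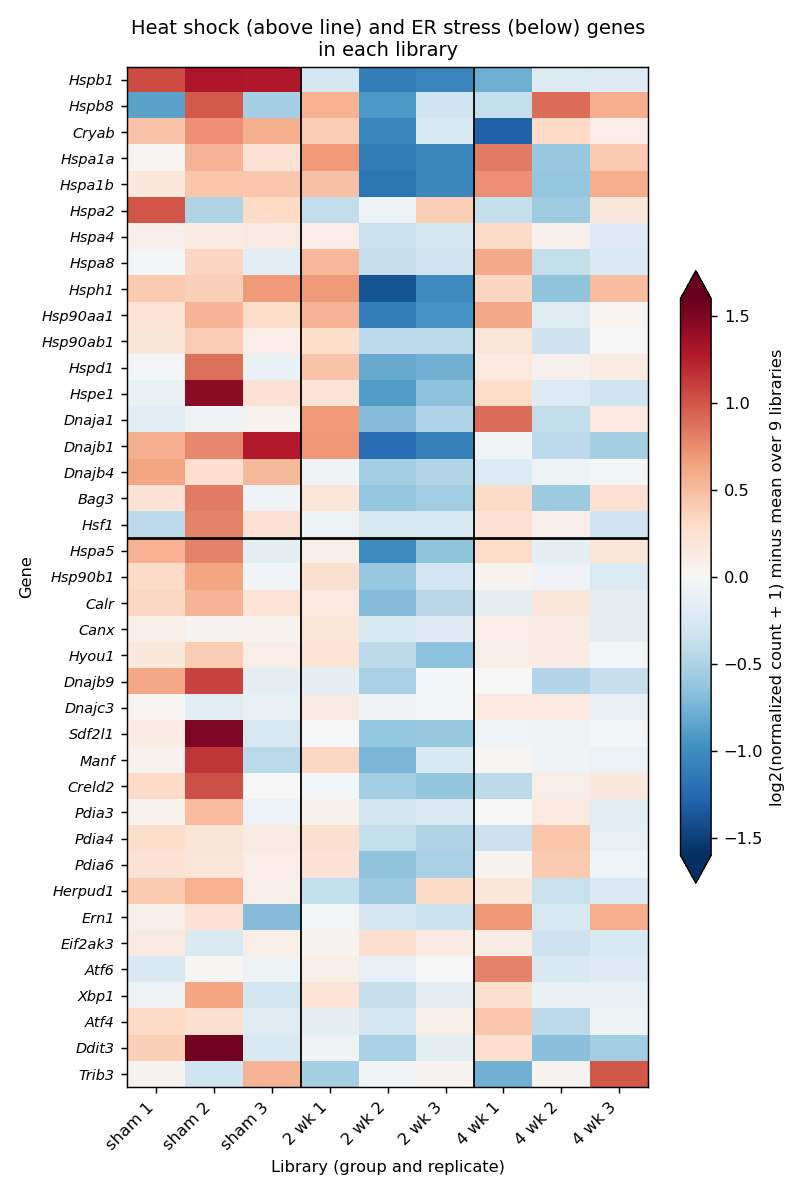
Heat map of the 39 genes (rows) in the 9 libraries (columns); colour is log2(normalized count + 1) minus the gene's mean over the 9 libraries, red above and blue below, with the heat shock branch above the thick line. Hspb1 is red in the 3 sham libraries and blue in the 6 ligation libraries, while most other heat shock genes are blue mainly in 2-week replicates 2 and 3.

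The promoters of both branches were searched for the elements that these pathways are known for, and a few are shown to let the letters be read beside the members' values. Sequences are RefSeq promoter windows on GRCm38.p6, from 250 bases before to 50 after the gene start, and 31 of 39 members matched. They are printed 5′ to 3′ on the gene's own strand. The heat shock element pair GAANNTTC, searched on both strands, was in 9 of 13 matched heat shock genes, in 0 of 18 ER stress genes and in 7.86% of all 32851 promoters. Capitals mark matches to that pair in bases 150 to 51 before the start of Hspb1 (chr5:135887769-135887868, plus strand) and Hspa1a (chr17:34972207-34972306, minus strand), the gene that passed and an inducible Hsp70 gene that did not.
Hspb1: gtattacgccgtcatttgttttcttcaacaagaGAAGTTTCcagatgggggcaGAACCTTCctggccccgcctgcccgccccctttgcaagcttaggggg
Hspa1a: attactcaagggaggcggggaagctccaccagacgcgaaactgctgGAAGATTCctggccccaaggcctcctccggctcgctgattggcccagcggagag
Hspb1 held 2 such pairs, and the Hspa1b window of the same bases was identical to that of Hspa1a. The longer form, that pair with GAA following after 2 more bases, was in 0.603% of all promoters and in 3 of 13 heat shock members, Hspd1, Hspe1 and Hsph1. It overlaps the pair by design. In Hspe1 (chr1:55088049-55088089, plus strand) the capitals mark an uninterrupted run of 18 bases that holds it on both strands, in the region shared with the divergent Hspd1 gene.
Hspe1: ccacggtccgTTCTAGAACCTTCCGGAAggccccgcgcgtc
The amino acid response element TGATGNAAN, also searched on both strands, was in 2 of 18 matched ER members, Herpud1 and Trib3. It was in 0 of 13 heat shock members and in 3.95% of all promoters. A match says only that these letters are present in the window.

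Hspb1, which encodes the small heat shock protein Hsp25/Hsp27 that holds unfolding proteins and binds to actin filaments, was the member with the largest difference at both times. Its normalized counts (ENSMUSG00000004951, chr5:135887919-135889563, plus strand) were 215, 258 and 254 in sham, 86.6, 47.7 and 50.1 at 2 weeks and 60.4, 89.5 and 89.8 at 4 weeks. All 6 ligation libraries lay below all 3 sham libraries, with a sham mean of 242 ± 23.3 (SD, n = 3) against 61.5 ± 21.8 and 79.9 ± 16.9. By limma the log2 fold change was −2.01 ± 0.29 (SE, adjusted p = 0.0700) at 2 weeks, which did not pass, and −1.61 ± 0.29 (SE, adjusted p = 0.0309) at 4 weeks, which did. The 4-week level differed from the 2-week level by 0.40 ± 0.29 (SE, adjusted p = 1.0).

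The Hspb1 call at 4 weeks sat close to the threshold. It also passed by edgeR (adjusted p = 0.0336) and DESeq2 (adjusted p = 0.000176). In limma it was lost without sham replicate 1 (adjusted p = 0.0761), sham replicate 3 (0.0843), 2-week replicate 3 (0.0603) and 4-week replicates 1 (0.0646), 2 (0.0859) and 3 (0.104). Without the shallow sham replicate 2 it passed (adjusted p = 0.0486), and the sham mean was then 235. Over 20 alternatives the 4-week log2 fold change ran from −1.70 to −1.34 and 12 passed, and the 2-week one ran from −2.28 to −1.86 and 4 passed.

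Sums of 2 marker lists of other cells also stood apart between sham and ligation. The T and NK cell sum (6 genes) was 116 to 156 in sham, 33.3 to 44.0 at 2 weeks and 27.5 to 34.5 at 4 weeks. It was mostly Cd4, at 133 ± 19.9 (SD, n = 3) in sham, 35.2 ± 6.71 at 2 weeks and 17.3 ± 9.78 at 4 weeks, while Cd3e stayed at 4.48 or less in every library and Nkg7 was at 0. The stellate cell and fibroblast sum (9 genes) was 1535 to 7521, then 7747 to 13363, then 8566 to 15399. It was mostly Reln, which the lymphatic list holds too, at 4780.3 ± 3581, 8799.8 ± 4251 and 10660.0 ± 2537, and Col1a1 averaged 129, 735 and 679.5. Sham replicate 2 had the lowest lymphatic marker sum (9079), and its Hspb1 level was 258, from 49 reads. That of sham replicate 3 was 254, and the gap is smaller than 1 read in sham replicate 2 (5.26 normalized counts). The macrophage sum was 27428 to 68806 in sham, 27195 to 61561 at 2 weeks and 11262 to 28321 at 4 weeks. The cholangiocyte sum (7 genes) was 1851 to 2870 in sham, 630 to 1446 at 2 weeks and 626 to 2393 at 4 weeks, and was mostly Spp1.

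Single marker genes of other cells also separated sham from all 6 ligation libraries, as Hspb1 did. Of 65 such genes, 5 were lower without overlap and 2 higher. The share of all genes that separated from sham in all 6 ligation libraries was not counted. At 2 weeks alone 7.71% of all genes were lower without overlap and 10.2% higher, and at 4 weeks alone 8.39% and 8.60%. The lower ones included 3 of the 7 cholangiocyte genes. Pkhd1, which encodes a protein of cholangiocyte cilia, was 284 to 491 in sham and 18.1 to 140.1 after ligation. Sox9, a transcription factor of bile duct cells, was 168 to 289 and 31.4 to 106, and Epcam, an adhesion molecule of duct epithelium, was 68.3 to 121 and 15.7 to 55.5. None of the 3 passed the test at either time, with adjusted p by limma of 0.0907, 0.135 and 0.169 at 4 weeks. Not every cholangiocyte gene was lower after ligation. Krt7 went the other way, with ranges that overlapped: 14.7 to 22.6 among sham libraries, 18.8 to 41.2 among ligation libraries. Its sham mean of 17.7 compares with 28.8 (2 weeks) and 33.5 (4 weeks). Of the 7 cholangiocyte log2 fold changes, 2 were above 0 in the 2-week comparison and 1 in the 4-week comparison. The other lower genes were Cd4, which passed at 4 weeks (adjusted p = 0.0176), and the sinusoidal gene Ehd3. The higher ones were the sinusoidal gene Fcgr2b, which passed at 4 weeks (adjusted p = 0.0283), and the collagen gene Col1a2. The part of these cells in the Hspb1 result was not tested.

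The other small heat shock genes among the members were Hspb8 and Cryab. Hspb8, which works with Bag3 to send misfolded proteins to autophagy, measured 18.3, 68.3 and 23.4 in sham, 50.7, 17.6 and 27.1 at 2 weeks and 25.9, 64.5 and 51.7 at 4 weeks, and its groups overlapped. Cryab, the αB-crystallin chaperone, measured 12.8, 15.8 and 14.0 in sham, 12.4, 3.92 and 7.45 at 2 weeks and 3.14, 11.6 and 9.84 at 4 weeks. Its ligation libraries all lay below the sham libraries, but these values rest on 3 to 21 reads each, and the sham replicate 2 value lies at the floor of 3 reads. The Cryab log2 fold change was −0.88 ± 0.67 (SE, adjusted p = 0.718) at 2 weeks and −0.87 ± 0.67 (SE, adjusted p = 0.603) at 4 weeks by limma.

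**Figure D2:**
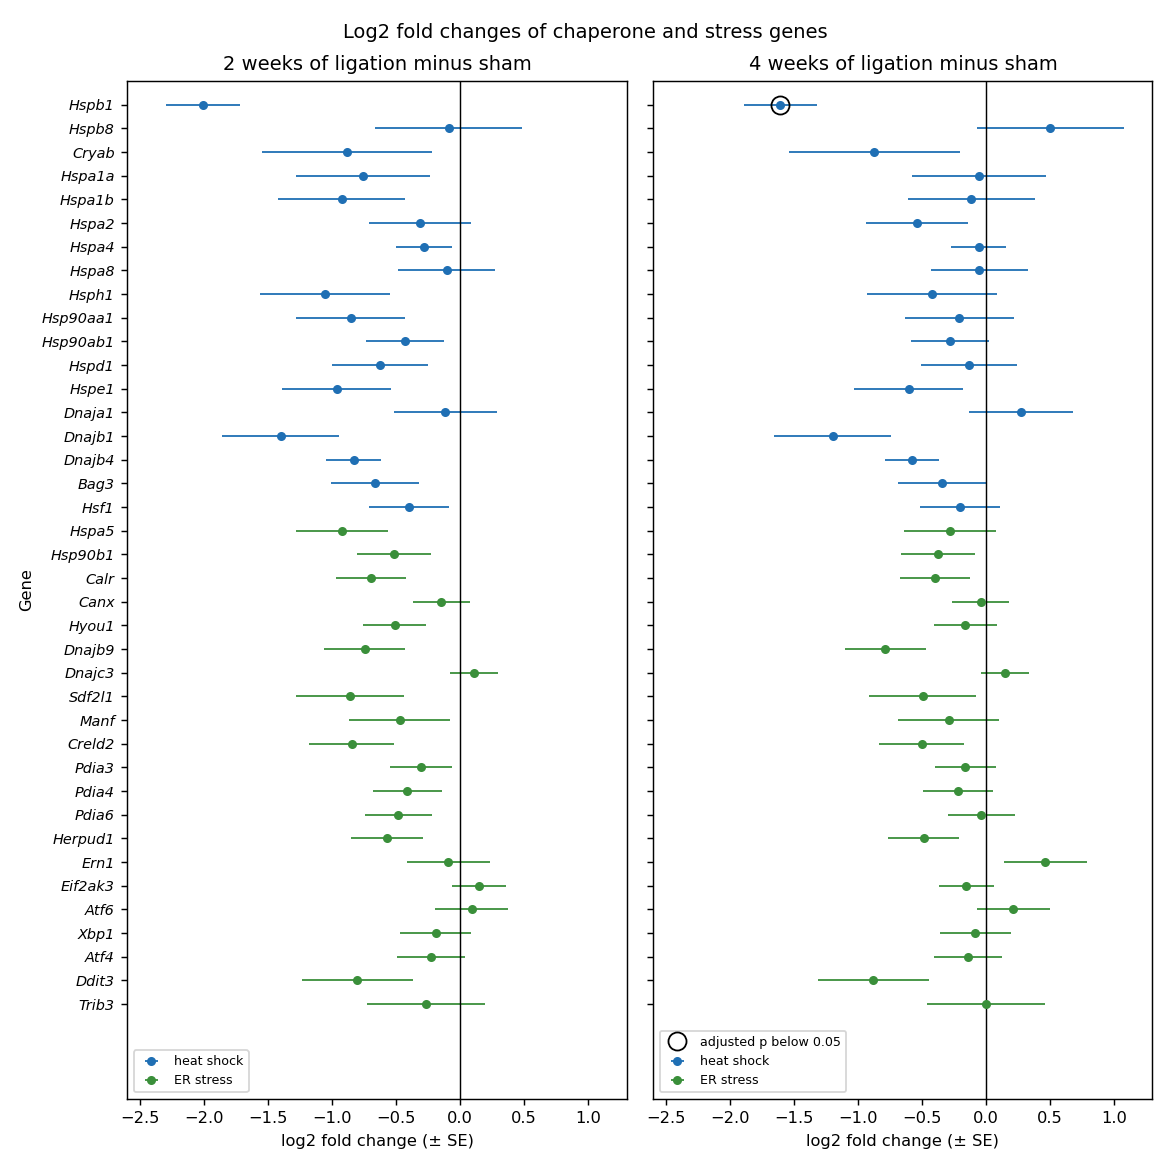
Log2 fold change (x axis, limma estimate ± SE from 3 against 3 libraries) of each of the 39 genes (y axis) at 2 weeks (left) and 4 weeks (right) against sham, blue for heat shock and green for ER stress. Hspb1 at 4 weeks is the only ringed point, the mark for an adjusted p below 0.05, and most points at 2 weeks lie left of 0.

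Among the Hsp70 genes, the stress-inducible pair Hspa1a and Hspa1b varied widely within the ligation groups. Hspa1a (ENSMUSG00000091971, chr17:34969190-34972156) measured 4621, 6603 and 5327 in sham, 7232, 2085 and 2218 at 2 weeks and 8049.8, 2968 and 6056 at 4 weeks. Hspa1b (ENSMUSG00000090877, chr17:34956436-34959238) measured 5881, 7108 and 7064 in sham, 7234, 2337 and 2552 at 2 weeks and 8714, 3402 and 7818 at 4 weeks. In both genes 2-week replicate 1 lay above all 3 sham libraries and the other 2-week libraries lay below all of them, while at 4 weeks only replicate 2 lay below sham. The limma log2 fold changes of Hspa1a were −0.76 ± 0.52 (SE, adjusted p = 0.695) at 2 weeks and −0.06 ± 0.52 (SE, adjusted p = 0.972) at 4 weeks. For Hspa1b they were −0.92 ± 0.50 (SE, adjusted p = 0.619) and −0.12 ± 0.50 (SE, adjusted p = 0.941).

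The coding sequences of Hspa1a and Hspa1b were identical at 1915 of 1926 aligned bases (99.4%), with an identical run of 638 bases, so reads could have been split between them by the counting. Their sum avoids that split: it was 10502, 13711 and 12391 in sham, 14465, 4422 and 4770 at 2 weeks and 16764, 6370 and 13875 at 4 weeks. The summed values kept the order of libraries seen in each gene within the 2-week and 4-week groups. Without both genes the median log2 fold change of the heat shock branch at 2 weeks was −0.65.

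The constitutive Hsp70 gene Hspa8, whose product folds new proteins and uncoats clathrin vesicles, measured 5695, 7334 and 5098 in sham, 8345, 4474 and 4601 at 2 weeks and 8790.0, 4409 and 4913 at 4 weeks. Its 2-week replicate 1 and 4-week replicate 1 exceeded every sham library and the other 4 ligation libraries lay below all sham libraries. The limma log2 fold change was −0.10 ± 0.38 (SE, adjusted p = 0.947) at 2 weeks. Hsph1, an Hsp110 protein that recharges Hsp70 with nucleotide, measured 2735, 2671 and 3291 in sham, 3298, 788 and 1021 at 2 weeks and 2605, 1314 and 2895 at 4 weeks. Its 2-week replicates 2 and 3 were the lowest of the 9 libraries and replicate 1 was the highest. At 2 weeks its log2 fold change was −1.06 ± 0.51 (SE, adjusted p = 0.598). Hspa4, another Hsp110-type exchange factor, ran from 454 to 715 over the 9 libraries, and Hspa2, an Hsp70 best known from testis, from 49.2 to 149.5. Their 2-week log2 fold changes were −0.28 and −0.31.

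In both cytosolic Hsp90 genes 2-week replicate 1 was the highest of its group. Hsp90aa1, the inducible cytosolic Hsp90, measured 2769, 3475 and 2928 in sham, 3471, 1105 and 1239 at 2 weeks and 3649, 2075 and 2406 at 4 weeks. Its 2-week replicate 1 lay within the sham range and 2-week replicates 2 and 3 lay below the rest of the 9 libraries, with a limma log2 fold change of −0.86 ± 0.43 (SE, adjusted p = 0.604). Hsp90ab1, the constitutive form, measured 5927, 6819 and 5563 in sham, 6240.2, 3848 and 3807 at 2 weeks and 5916, 4089 and 5153 at 4 weeks. The 2-week log2 fold change was −0.43 ± 0.30 (SE, adjusted p = 0.698), smaller than for Hsp90aa1 in the point estimate, and the difference between them was not tested.

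The mitochondrial chaperonin genes Hspd1 (Hsp60) and Hspe1 (Hsp10) lie head to head, on the minus and plus strand of chromosome 1. Hspe1 measured 169.6, 499 and 216 in sham, 214, 98.0 and 116 at 2 weeks and 224, 158 and 146 at 4 weeks. Sham replicate 2 was the highest of its libraries, at 95 reads, and 2-week replicates 2 and 3 the lowest. By limma the log2 fold change was −0.97 ± 0.43 (SE, adjusted p = 0.572) at 2 weeks, with an unadjusted p of 0.0474. Hspd1 ran from 242 to 783 over the libraries, again with sham replicate 2 highest, and its 2-week log2 fold change was −0.63 ± 0.37 (SE, adjusted p = 0.640). Transcripts overlap at this shared start, and the sources used here do not say whether the counting used strand.

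The J-domain genes, which hand clients to Hsp70, held 2 of the 3 heat shock members with the lowest p at both times. Dnajb1 (Hsp40), a classic Hsf1 target, measured 812, 925 and 1311 in sham, 879, 235 and 257 at 2 weeks and 529.9, 408 and 375 at 4 weeks. At 4 weeks all 3 libraries lay below all 3 sham libraries, while at 2 weeks replicate 1 lay within the sham range. The limma log2 fold change was −1.40 ± 0.46 (SE, adjusted p = 0.435) at 2 weeks and −1.20 ± 0.46 (SE, adjusted p = 0.278) at 4 weeks. Dnajb4 (chr3:152178511-152210302, minus strand), a related Hsp40 gene, measured 326, 252 and 301 in sham, 202, 143 and 151 at 2 weeks and 179.8, 198 and 208 at 4 weeks. Its 6 ligation libraries all lay below the 3 sham libraries, and its log2 fold changes were −0.83 ± 0.21 (SE, adjusted p = 0.289) and −0.58 ± 0.21 (SE, adjusted p = 0.267). DESeq2 put Dnajb4 past the threshold at 2 weeks (adjusted p = 0.0260), and limma and edgeR did not.

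Dnaja1, a type I J-domain protein, ran from 596 to 1786, with 2-week replicate 1 and 4-week replicates 1 and 3 above all sham libraries, and its log2 fold changes were −0.11 at 2 weeks and 0.27 at 4 weeks. Bag3, the partner of Hspb8, measured 778, 1178 and 637 in sham, 757, 429 and 451 at 2 weeks and 821, 442 and 780.1 at 4 weeks, with log2 fold changes of −0.66 ± 0.34 (SE, adjusted p = 0.608) and −0.35 ± 0.34 (SE, adjusted p = 0.699). Hsf1, the transcription factor of the response, ran from 74.3 to 173 over the libraries, and its log2 fold change was −0.40 at 2 weeks and −0.20 at 4 weeks. For these genes the ligation groups overlapped sham at both times.

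**Figure D3:**
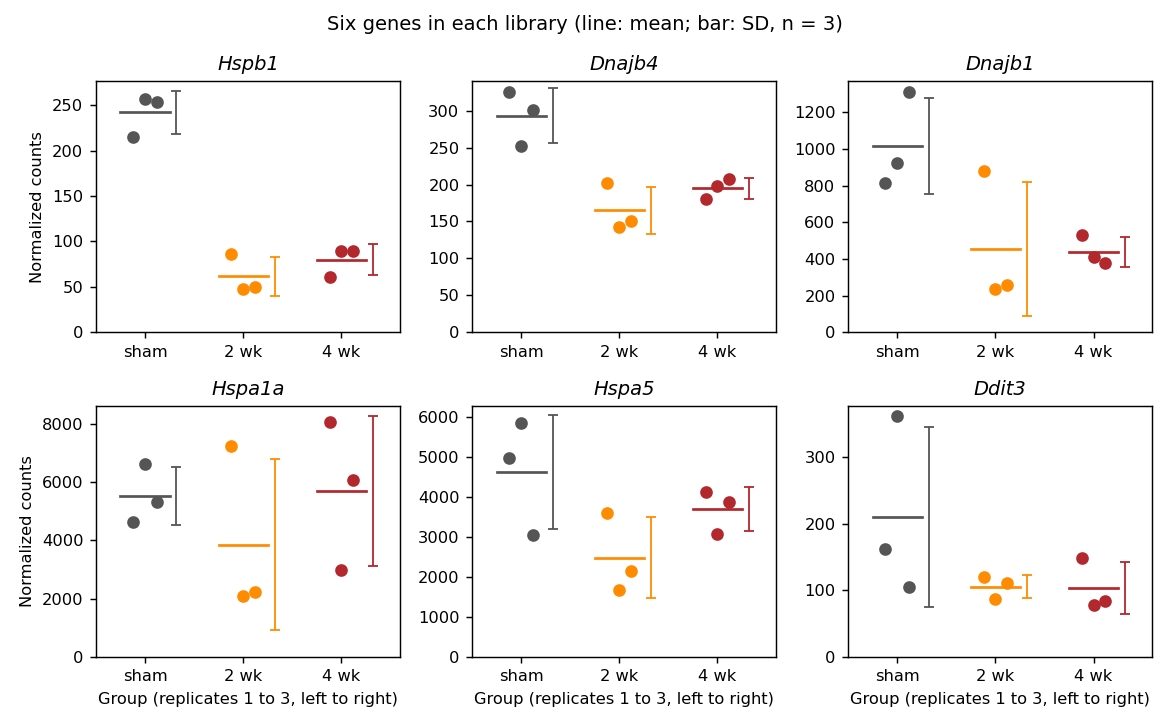
Normalized counts (y axis, from 0) of 6 genes in each library (points, replicates 1 to 3 from left to right) with group mean (line) and SD (bar, n = 3) for sham, 2 weeks and 4 weeks of ligation. Hspb1 and Dnajb4 show no overlap of ligation with sham, Dnajb1 and Hspa1a show 2-week replicate 1 apart from replicates 2 and 3, and Ddit3 in sham is spread by sham replicate 2.

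Levels were also divided by the length in kilobases of all annotated exons of a gene, joined over its transcripts. That length can exceed the mRNA present, so the order of genes depends on it. On this scale the sham level was highest for Hspa1b at 2385 ± 248 normalized counts per kb (SD, n = 3). Hsp90ab1 at 2035 ± 215, Hspa1a at 1859 ± 339 and Hspa8 at 1405 ± 269 followed. Hspa5 (1095 ± 338) and Calr (987 ± 113) led the ER branch. Among these 6, each neighbour in the order differed by less than the sum of both SDs. Hspb1 stood at 235 ± 22.6 per kb, and the lowest members were Hspb8 (18.8), Hsf1 (17.2), Trib3 (17.0) and Cryab (9.61). By this measure the inducible Hspa1a and Hspa1b stood at or above the constitutive Hspa8 in sham libraries, which had no ligation. The lengths used were 2967, 2803 and 4301 bases for Hspa1a, Hspa1b and Hspa8. Before that division their sham means were 5517, 6684 and 6042 normalized counts, so the order of Hspa1a and Hspa8 rests on the length used. Summed immediate early genes (20 genes, among them Egr1, Fosb and Atf3), known to be raised by tissue dissociation, were 44128 to 54789 in sham, 40053 to 47288 at 2 weeks and 28961 to 59983 at 4 weeks, and their part in the heat shock levels was not tested.

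In the ER branch 0 of 21 members passed by limma in any comparison. At an unadjusted p below 0.05 limma gave 4 at 2 weeks and 1 at 4 weeks, beside 8.55% and 13.7% of all genes. Between the times it gave 0, beside 4.02% of all genes. Both edgeR and DESeq2 also passed 0 of 21 in each of the 3 comparisons. The ER stress response element, CCAAT and CCACG with 9 bases between them, searched on both strands, was in 7 of 18 matched ER members, in 0 of 13 heat shock members and in 0.119% of all promoters. Capitals mark it in Hspa5 (chr2:34772017-34772051, plus strand), Hsp90b1 (chr10:86705525-86705559, minus strand), Calr (chr8:84847067-84847101, minus strand) and Creld2 (chr15:88819512-88819546, plus strand), shown because these genes lead the ER branch in level or in p.
Hspa5: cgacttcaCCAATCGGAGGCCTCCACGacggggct
Hsp90b1: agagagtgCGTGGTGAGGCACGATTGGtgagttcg
Calr: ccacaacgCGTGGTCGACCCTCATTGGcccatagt
Creld2: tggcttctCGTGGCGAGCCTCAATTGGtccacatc
In these windows of Hsp90b1, Calr and Creld2 the element lies on the opposite strand and is read here as its complement. The Hsp90b1 promoter holds a further match, not shown, on the gene's own strand from base 212 before the start. Herpud1 (chr8:94386365-94386399, plus strand) holds the second form of the element, ATTGG and CCACG with 1 base between them, which was in 0.0365% of all promoters and in 1 of 18 ER members.
Herpud1: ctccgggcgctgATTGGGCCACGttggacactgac

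Hspa5 (BiP), the main Hsp70 of the ER and the protein that keeps the 3 sensors silent, measured 4982, 5851 and 3061 in sham, 3613, 1679.5 and 2157 at 2 weeks and 4134, 3072 and 3878 at 4 weeks. Sham replicate 3 lay below 2-week replicate 1 and below all 4-week libraries, so the groups overlapped at both times. The limma log2 fold change was −0.92 ± 0.36 (SE, adjusted p = 0.518) at 2 weeks and −0.29 ± 0.36 (SE, adjusted p = 0.764) at 4 weeks, and 4 weeks stood 0.64 ± 0.36 (SE, adjusted p = 1.0) above 2 weeks. That last difference was 0.39 without 2-week replicate 2 and 0.95 without 2-week replicate 1. The 4-week one was −0.09 without sham replicate 2, −0.56 without sham replicate 3 and −0.16 without 4-week replicate 2. Hsp90b1 (Grp94), the Hsp90 of the ER, measured 2357, 2949 and 1839.7 in sham, 2274, 1244 and 1535 at 2 weeks and 1966, 1825 and 1634 at 4 weeks, with log2 fold changes of −0.52 ± 0.29 (SE, adjusted p = 0.625) and −0.37 ± 0.29 (SE, adjusted p = 0.604).

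Calr, the calcium-binding lectin chaperone calreticulin, measured 2776, 3196 and 2553 in sham, 2442, 1356 and 1611 at 2 weeks and 1982, 2492 and 1995 at 4 weeks. All 6 ligation libraries lay below the 3 sham libraries, and the log2 fold changes were −0.69 ± 0.27 (SE, adjusted p = 0.521) at 2 weeks and −0.40 ± 0.27 (SE, adjusted p = 0.561) at 4 weeks. Its membrane-bound relative Canx ran from 1615 to 2181, with log2 fold changes of −0.15 and −0.04. Creld2, an ER disulfide isomerase-like protein, measured 85.3, 142 and 69.3 in sham, 67.8, 47.0 and 44.0 at 2 weeks and 51.0, 73.4 and 77.5 at 4 weeks. Its 2-week libraries lay below all sham libraries and its 4-week libraries overlapped them, with log2 fold changes of −0.85 ± 0.33 (SE, adjusted p = 0.518) and −0.50 ± 0.33 (SE, adjusted p = 0.543). Without sham replicate 2 these were −0.56 and −0.21, and the 4-week one was −0.32 without 4-week replicate 1.

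Dnajb9 (ERdj4), a J-domain cofactor of BiP, measured 244, 336 and 143 in sham, 142, 111 and 156 at 2 weeks and 160.1, 115 and 123 at 4 weeks. The 3 sham libraries were spread widely, and sham replicate 3 lay among the ligation libraries. Its log2 fold changes were −0.75 ± 0.32 (SE, adjusted p = 0.549) and −0.79 ± 0.32 (SE, adjusted p = 0.305). Dnajc3 (p58IPK), another cofactor of BiP, was one of 3 members above 0 at 2 weeks, at 0.11. The remaining ER chaperones Hyou1, Sdf2l1 and Manf had 2-week log2 fold changes of −0.51, −0.86 and −0.47 and 4-week log2 fold changes of −0.16, −0.50 and −0.29. For Sdf2l1 and Manf the sham level was spread by sham replicate 2, the highest library in both.

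The protein disulfide isomerases Pdia3, Pdia4 and Pdia6 form and reshuffle disulfide bonds in new proteins. Pdia6 measured 465, 452 and 425 in sham, 467, 253 and 277 at 2 weeks and 407, 530.1 and 384 at 4 weeks, and the 4-week level stood 0.45 ± 0.26 (SE, adjusted p = 1.0) above the 2-week level by limma. The 2-week log2 fold changes were −0.31 for Pdia3, −0.41 for Pdia4 and −0.48 for Pdia6, and the 4-week log2 fold changes lay between −0.22 and −0.04. Herpud1, part of the complex that sends misfolded ER proteins to the proteasome, measured 359, 394 and 285 in sham, 205, 179.6 and 332 at 2 weeks and 305, 209.5 and 228 at 4 weeks, with 2-week replicate 3 and 4-week replicate 1 inside the sham range. Its log2 fold changes were −0.57 ± 0.28 (SE, adjusted p = 0.603) and −0.49 ± 0.28 (SE, adjusted p = 0.483).

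Of the 3 sensors, 2 had a positive point estimate at each time, as the chaperone Dnajc3 did (0.11 and 0.15). At 2 weeks these were Eif2ak3 (0.15 ± 0.21, SE) and Atf6 (0.09 ± 0.28, SE), and at 4 weeks Ern1 and Atf6 (0.21 ± 0.28, SE). Ern1 measured 538, 594 and 311 in sham, 496, 417 and 395 at 2 weeks and 820.3, 422 and 754 at 4 weeks. At 4 weeks replicates 1 and 3 lay above all other libraries and replicate 2 inside the sham range, with a log2 fold change of 0.46 ± 0.32 (SE, adjusted p = 0.570) against sham and 0.56 ± 0.32 (SE, adjusted p = 1.0) against 2 weeks. Atf6 ran from 345 to 436 in 8 libraries and stood at 713 in 4-week replicate 1. Without that library its 4-week mean was 350, below the sham mean of 383. Eif2ak3 measured 220.1, 168 and 212 in sham, 205, 239 and 219 at 2 weeks and 216, 158 and 167 at 4 weeks, and its 4-week log2 fold change against 2 weeks was −0.30 ± 0.21 (SE, adjusted p = 1.0).

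Of the effectors, Xbp1, which IRE1α activates by splicing its mRNA, measured 301, 484 and 255 in sham, 363, 243 and 282 at 2 weeks and 375, 288 and 289 at 4 weeks, and these gene counts do not separate the spliced form. Atf4, translated when PERK slows protein synthesis, measured 977, 941 and 693 in sham, 714, 657 and 845 at 2 weeks and 1062, 590.1 and 755 at 4 weeks. Their 2-week log2 fold changes were −0.19 ± 0.28 (SE, adjusted p = 0.861) for Xbp1 and −0.23 ± 0.26 (SE, adjusted p = 0.819) for Atf4, and both sets of libraries overlapped sham. Ddit3 (CHOP), the pro-apoptotic factor downstream of Atf4, measured 162, 363 and 104 in sham, 119.6, 86.2 and 111 at 2 weeks and 149, 77.9 and 83.7 at 4 weeks. Sham replicate 2 was the highest library, at 69 reads, and sham replicate 3 lay within both ligation groups. The Ddit3 log2 fold change was −0.80 ± 0.43 (SE, adjusted p = 0.623) at 2 weeks and −0.88 ± 0.43 (SE, adjusted p = 0.406) at 4 weeks, and without sham replicate 2 the latter was −0.39. Trib3, a pseudokinase induced by Atf4 and CHOP, ran from 18.8 to 66.4, both ends in 4-week libraries.

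Over whole groups, ligation libraries that did not overlap sham on the lower side were found for 5 members at 2 weeks (Hspb1, Cryab, Dnajb4, Calr and Creld2), where 7.71% of all genes did so. At 4 weeks there were also 5 (Hspb1, Cryab, Dnajb1, Dnajb4 and Calr), where 8.39% of all genes did. No member stood above sham without overlap at either time, where 10.2% and 8.60% of all genes did. Between 4 and 2 weeks 0 members were without overlap in either direction, against 4.34% of all genes higher and 5.06% lower.

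**Figure D4:**
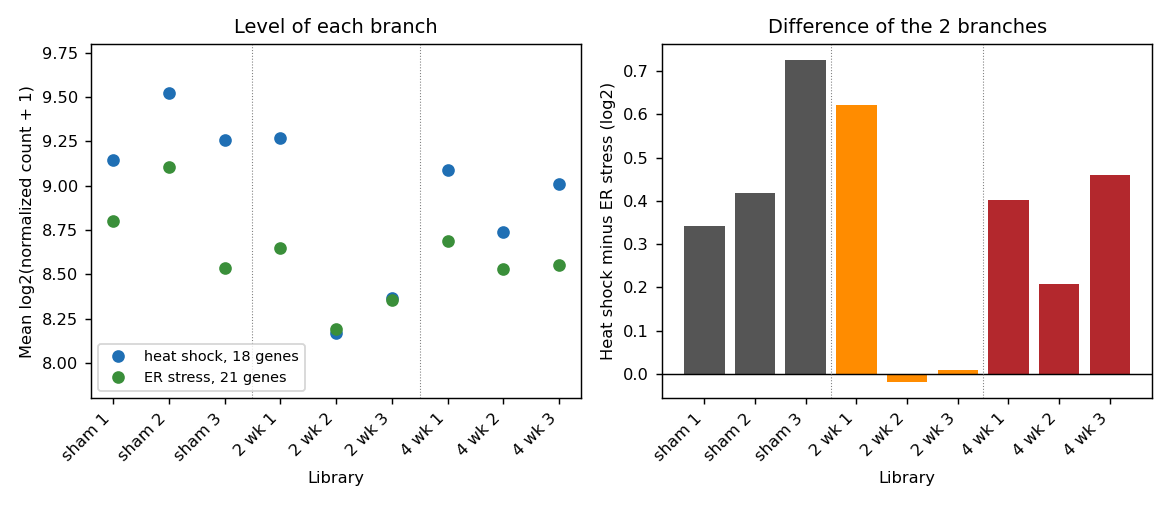
Left, mean log2(normalized count + 1) of the 18 heat shock genes (blue) and 21 ER stress genes (green) in each library; right, heat shock minus ER stress in the same libraries, grey for sham, orange for 2 weeks and red for 4 weeks. The difference is 0.62 in 2-week replicate 1 and −0.02 and 0.01 in 2-week replicates 2 and 3.

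Set against each other, both branches had medians below that of all genes in the comparisons with sham, and above it between 4 and 2 weeks. The median log2 fold change at 2 weeks was −0.71 over 18 heat shock genes and −0.47 over 21 ER stress genes, beside 0.07 over all genes. At 4 weeks the medians were −0.25 and −0.16, beside 0.07. Between 4 and 2 weeks they were 0.34 and 0.15, beside 0.01. Leaving out 2-week replicate 1 gave 2-week medians of −1.01 and −0.64 and 4-against-2-week medians of 0.69 and 0.27. Leaving out 2-week replicate 2 made the latter 0.16 and 0.06, and without 2-week replicate 3 the heat shock one was 0.21. The 4-week heat shock median of −0.25 became −0.11, −0.39 or −0.09 when sham replicate 2, 4-week replicate 1 or 4-week replicate 2 was left out. The ER median was −0.078 without sham replicate 2 and −0.29 without either sham replicate 3 or 4-week replicate 1.

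The mean log2 level of the heat shock branch was 9.14, 9.52 and 9.26 in sham, 9.27, 8.17 and 8.37 at 2 weeks and 9.09, 8.74 and 9.01 at 4 weeks. That of the ER branch was 8.80, 9.10 and 8.53, then 8.65, 8.19 and 8.36, then 8.69, 8.53 and 8.55. Heat shock minus ER was therefore 0.34, 0.42 and 0.73 in sham, 0.62, −0.02 and 0.01 at 2 weeks and 0.40, 0.21 and 0.46 at 4 weeks. The group means were 0.49 ± 0.20, 0.20 ± 0.36 and 0.36 ± 0.13 (SD, n = 3), and the difference of −0.29 between 2 weeks and sham was smaller than the 2-week SD. Leaving out 2-week replicate 1 made that difference −0.50, leaving out 2-week replicates 2 or 3 made it −0.18 or −0.19, and leaving out sham replicate 3 made it −0.18. At 4 weeks the difference of −0.14 became −0.22 with sham replicate 1 left out, −0.02 with sham replicate 3 left out and −0.06 with 4-week replicate 2 left out. No p is given, since the members were chosen with earlier results known.

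Within the ligation groups the members varied by library. In 2-week replicate 1, 17 of 18 heat shock genes and 16 of 21 ER stress genes were the highest of the 3 libraries, against 35.8% of all genes. The median heat shock gene stood 1.03 log2 units above the mean of the other 2-week libraries, the median ER gene 0.42 and the median of all genes 0.01. The median log2 range between 2-week replicates was 1.19 for heat shock genes, 0.58 for ER genes and 0.50 for all genes, while in sham it was 0.44, 0.61 and 0.91. In 4-week replicate 1, 12 of 18 and 12 of 21 were the highest, against 43.5% of all genes. In sham replicate 3, 16 of 21 ER genes were the lowest, against 29.4% of all genes. In the shallow sham replicate 2, 12 of 18 heat shock and 14 of 21 ER genes were the highest, against 40.2% of all genes.

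Macrophage markers varied in the same order of libraries as the branches in some groups. Their sums were 43641, 68806 and 27428 in sham, 61561, 27195 and 44509 at 2 weeks and 28321, 14452 and 11262 at 4 weeks. The ER branch had the same order of libraries in sham and at 2 weeks, and the heat shock branch at 2 weeks. At 4 weeks replicate 1 was highest in all 3 measures, and replicate 3, with the lowest macrophage sum of all 9 libraries, had a heat shock level of 9.01. The part of these markers in the branch levels was not tested. Summed lymphatic markers ran in the reverse order of the macrophage sums in all 3 groups. They were 35122, 9079 and 41451 in sham, 17670, 47433 and 36557 at 2 weeks and 26280, 43035 and 47108 at 4 weeks.

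Genes of the same pathways outside the 39 members were counted from separate lists. At an unadjusted p below 0.05 limma gave 8.55% of all genes at 2 weeks, 13.7% at 4 weeks and 4.02% between the times. Of 35 other cytosolic chaperones and cochaperones tested, 0 passed by limma in any comparison (unadjusted 3 at 2 weeks and 4 at 4 weeks), 0 by edgeR, and by DESeq2 2 at 2 weeks and 1 at 4 weeks. Their medians were −0.14 and −0.04. The lowest p belonged to Fkbp5, an Hsp90 cochaperone of steroid receptors, whose mean normalized count (± SD, n = 3) was 338 ± 143 for sham, 1414 ± 238 for 2 weeks and 1145 ± 506 for 4 weeks. Its log2 fold change was 2.16 ± 0.40 (SE, adjusted p = 0.168) and 1.77 ± 0.40 (SE, adjusted p = 0.0713) by limma, on the opposite side from most heat shock members. Dnaja4, a J-domain gene, stood at 209 ± 100.3, 78.6 ± 26.8 and 86.1 ± 18.1, with log2 fold changes of −1.32 ± 0.44 (SE, adjusted p = 0.438) and −1.14 ± 0.44 (SE, adjusted p = 0.280). Between 4 and 2 weeks the lowest p belonged to Stip1 (0.50) and Cacybp (0.56), neither of which passed.

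Of 40 other ER folding and degradation genes, 0 passed by limma (unadjusted 2 at 2 weeks, 3 at 4 weeks and 0 between the times), by edgeR or by DESeq2. Their medians, 0.14 at 2 weeks and 0.19 at 4 weeks, lay above 0 where those of the ER members lay below it. Erlec1, a lectin of ER-associated degradation, stood at 78.3 ± 12.1 in sham and 149.8 ± 19.1 at 2 weeks, a log2 fold change of 0.93 ± 0.25 (SE, adjusted p = 0.298), and Txndc5, a disulfide isomerase, had a log2 fold change of 0.48. At 4 weeks the lowest p belonged to Derl2 (0.63) and Fkbp14 (1.35), and between the times to Erlec1 (−0.51) and Edem2 (−0.44), none of which passed.

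Of 19 further integrated stress response genes, 1 passed by limma, Slc7a11, the cystine importer that is a target of Atf4 and of the oxidative stress factor Nrf2. It averaged 38.4 ± 13.6 normalized counts for sham, 192 ± 67.9 for 2 weeks and 668 ± 403 for 4 weeks, and it rose at 4 weeks with a log2 fold change of 3.92 ± 0.50 (SE, adjusted p = 0.0105). Atf4 itself was at 870.3 ± 154, 739 ± 96.5 and 803 ± 239. By edgeR 1 gene passed as well, Slc7a11 at 4 weeks. DESeq2 passed Slc7a11 and Ddit4, a stress-induced inhibitor of mTORC1, at 2 and at 4 weeks, and Slc7a11 between the times. The list's medians were −0.07 at both times. Of the 20 immediate early genes, 0 passed by limma (unadjusted 3 at 2 weeks, 4 at 4 weeks and 1 between the times) and 0 by edgeR, and DESeq2 passed Fosb and Egr1 at 4 weeks. Egr1, the lowest p at 4 weeks, averaged 4275 ± 1179.8 for sham, 2300.2 ± 253 for 2 weeks and 1773 ± 390.3 for 4 weeks, a log2 fold change of −1.26 ± 0.29 (SE, adjusted p = 0.0734). Atf3, an Atf4 target in both of these lists, had log2 fold changes of −1.28 and −1.12, and between the times Btg2 (−0.56) and Ier2 (−0.50) had the lowest p, and none of them passed.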

How the data were processed

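RNA was measured by RNA-seq of ribosomal-RNA-depleted total RNA. The deposited table holds a normalized signal per gene, counts divided by library size factors by the authors. Trim Galore 0.5.0, HISAT2 2.1.0, StringTie 1.3.3b, DESeq2 1.22.1 and mm10 are named per the submitters' processing notes. Steps from reads to counts, and whether strand was used, are not given in the sources used here. All value columns were assigned to samples, and 0 were left unused.

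The main test was limma 3.58.1 (R 4.3.3) on log2(normalized count + 1), with empirical Bayes trend, for genes with a mean of at least 10, over all 9 libraries with group means and no block. Fold changes are on that scale, which understates low genes. Dividing each library by its lowest step gave whole reads for 100.0% of 197424 values (tolerance 0.001). On these reads edgeR 4.0.16 (quasi-likelihood) called 2, 167 and 0 genes of 11809 at 2 weeks, at 4 weeks and between the times, and DESeq2 1.42.0 called 211, 573 and 78, while limma called 2, 142 and 0. Scripts were tested on simulated data.

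The members and gene lists were chosen with earlier results of these data known. Values in every library are given for members that passed, the 3 members with the lowest p per branch and comparison, and a fixed set (Hspa1a, Hspa1b, Hsp90aa1, Hspa8, Hspb1, Hspa5, Hsp90b1, Xbp1, Atf4, Ddit3). Of each pathway list, genes that passed are named, otherwise the 2 with the lowest p. Some others are shown besides, chosen after their values were seen. Gene coordinates come from GENCODE on GRCm38, by Ensembl ID. Replicates of a group differed by more than sampling noise, with a chi-square of 7.44 to 51.3 per degree of freedom. None was therefore counted as a resequencing of another. The chi-square covers read sampling only, so it cannot tell separate mice from separate preparations of the same mouse. A floor of 3 reads covers counting error only. Alternatives were pseudocounts of 0.5 and 5, no filter and a mean of at least 50, TMM scaling, only the 2 groups compared, a replicate block, library quality weights, edgeR, DESeq2, leaving out libraries, and leaving out Hspa1a and Hspa1b.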

Additional observations from a re-analysis of the deposited data

How the results depend on the processing

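The branch medians and heat shock minus ER differences kept their sign in 186 of 186 alternative values. Part of these could not differ from the main fit, and the same holds for the named genes that follow. Leaving out a library of the group not compared, fitting only the 2 groups and blocking on replicate number all leave a fold change as it was. Of 54 log2 fold changes (18 named genes in 3 comparisons), 17 had the other sign under an alternative, in 50 of 1080 values, and each of these 17 was within 0.21 of 0 and did not pass. Leaving out 1 library moved 43 of the 54 by over 1.5 times or changed their sign, and the ranges of those that changed sign follow. At 2 weeks they were Hspa8 (−0.40 to 0.053), Ern1 (−0.38 to 0.086) and Xbp1 (−0.38 to 0.075). At 4 weeks they were Hspa1a (−0.36 to 0.36), Hspa1b (−0.37 to 0.31), Hspa8 (−0.36 to 0.14) and Pdia6 (−0.18 to 0.056). The rest were Xbp1 (−0.27 to 0.18) and Atf4 (−0.37 to 0.058). Between the times they were Hspa8 (−0.26 to 0.34), Dnajb1 (−0.13 to 0.82), Hsp90b1 (−0.051 to 0.38) and Dnajb9 (−0.18 to 0.062). The rest were Herpud1 (−0.096 to 0.35), Xbp1 (−0.023 to 0.27), Atf4 (−0.14 to 0.29) and Ddit3 (−0.37 to 0.094). Without sham replicate 2 and 4-week replicate 1 together the other sign was seen as 0.045 for Hspa8 at 2 weeks, 0.086 for Ern1 at 2 weeks, 0.075 for Xbp1 at 2 weeks, 0.021 for Pdia6 at 4 weeks, 0.059 for Xbp1 at 4 weeks, −0.26 for Hspa8 between the times, −0.078 for Herpud1 between the times, −0.016 for Xbp1 between the times and −0.14 for Atf4 between the times. With quality weights the other sign was seen as −0.074 for Hspa8 between the times, −0.18 for Herpud1 between the times and −0.15 for Atf4 between the times. By edgeR the other sign was seen as 0.027 for Hspa1a at 4 weeks and −0.052 for Dnajb1 between the times. By DESeq2 the other sign was seen as 0.024 for Hspa1a at 4 weeks and −0.059 for Dnajb1 between the times. The number of members passing at 2 weeks was 0 and became 6 with library quality weights (Hspb1, Dnajb1, Dnajb4, Hspa5, Calr and Creld2), 2 with DESeq2, 1 without sham replicate 2 and 4-week replicate 1 together, and 0 to 1 when 1 library was left out. At 4 weeks it was 1 and became 6 with quality weights (Hspb1, Hspb8, Hspa2, Dnajb4, Dnajb9 and Ddit3), 0 in a fit of only the 2 groups (Hspb1 adjusted p = 0.0680), and 0 to 1 when 1 library was left out. With quality weights limma called 1112 and 1608 of all genes at 2 and 4 weeks, against 2 and 142. The cause was not tested. With the replicate number as a block 0 members passed at 4 weeks (Hspb1 adjusted p = 0.0845) and 84 of all genes. Libraries share only that number: deviations of same-numbered libraries correlated at −0.445 to 0.228, over 0.1 in 2 of 9 pairs. The ER median at 4 weeks ran from −0.29 to −0.078 and the heat shock median from −0.39 to −0.09 when 1 library was left out. Testing without the filter on low values moved the median of all genes at 4 weeks to 0.29. Depth limits Cryab, Hspb8, Trib3 and every value of sham replicate 2, where 3 reads are 15.8 normalized counts.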
